A study of Mus musculus with 8 samples.

Results

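Dermal white adipocytes were followed through 10 genes that these cells use to store lipid and to signal, namely Adig, Plin1, Plin4, Cidec, Fabp4, Lpl, Adipoq, Lep, Cfd and Retn. The genes were chosen by name as a white adipocyte set, with their measured values in these data already known, so the values below describe them and test nothing. They are 10 of 50981 gene symbols over 3 tables of FPKM (fragments per kilobase of transcript scaled to the number of mapped fragments). All 10 had a row in every table.

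The mice were C57BL/6, either wild type (labelled JunB +/+) or with the floxed JunB gene deleted by Cre recombinase under the K14 promoter (JunB cKO, labelled JunB -/-). K14 is a keratin of basal epidermal cells, so the deletion is directed at the epidermis and not at adipocytes. The first table compared keratinocytes isolated with trypsin from unperturbed mice of 60 days, the second skin biopsies taken 4 days after the hair was plucked at an age of 54 days, and the third skin biopsies taken 30 days after full-thickness wounding of mice whose age is not given in the sources used here. The labels list 1 library per genotype for the keratinocytes and for plucked skin and 2 per genotype for the wounds, and the study's methods describe RNA of 3 samples pooled in each group. Each table holds a single FPKM per genotype, so no replicate error could be computed from these values, no test was made, and no difference can be set against a spread between mice.

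White adipocytes hold triglyceride in a single large droplet. Proteins of the perilipin and CIDE families coat the droplet and control its growth and its breakdown, lipoprotein lipase and fatty acid carriers bring lipid into the cell, and the same cell secretes hormones and a complement protease. In skin these cells form a layer beneath the dermis that expands and shrinks with the hair cycle and takes part in wound repair.

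JunB is a subunit of the transcription factor AP-1, and the windows around the members' transcription starts (250 bases before to 50 bases after, RefSeq, build GRCm38.p6) were searched on both strands for the AP-1 letters TGANTCA, the C/EBP letters TTGCNNAA, the TATA letters TATAAA and the 13-letter PPAR response element. C/EBP factors and PPAR gamma are the main regulators of fat cell formation. Windows were available for 8 of the 10 genes, with 2 windows for Cidec. The AP-1 letters occurred in 1 of these 9 windows and in 7.81% of all 32851 windows, the C/EBP letters in 3 of 9 and in 10.8%, the TATA letters in none and in 13.6%, and the PPAR response element in none and in 0.0396%. A match of letters is not a binding site, and the absence of one concerns these windows only. The windows with a match are those of Cidec, Plin1 and Lep and are shown with the match in capitals, 5′ to 3′ on the strand of the gene. Those of Adig and Adipoq follow, since these genes lay farthest apart among the members with a level above 0 in wild type plucked skin.
Cidec, chr6:113434715-113435014, minus strand: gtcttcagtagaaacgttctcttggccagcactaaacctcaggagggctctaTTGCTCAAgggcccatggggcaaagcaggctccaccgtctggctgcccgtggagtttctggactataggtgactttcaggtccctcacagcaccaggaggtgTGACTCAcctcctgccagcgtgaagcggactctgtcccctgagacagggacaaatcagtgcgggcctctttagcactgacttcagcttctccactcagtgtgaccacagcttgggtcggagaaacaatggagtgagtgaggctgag
Plin1, chr7:79732727-79733026, minus strand: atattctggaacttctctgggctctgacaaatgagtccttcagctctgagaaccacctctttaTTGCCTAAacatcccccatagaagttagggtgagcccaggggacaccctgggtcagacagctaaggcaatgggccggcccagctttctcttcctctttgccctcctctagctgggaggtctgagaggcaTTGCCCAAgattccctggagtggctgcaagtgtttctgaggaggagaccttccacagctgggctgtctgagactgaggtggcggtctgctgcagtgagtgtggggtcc
Lep, chr6:29059971-29060270, plus strand: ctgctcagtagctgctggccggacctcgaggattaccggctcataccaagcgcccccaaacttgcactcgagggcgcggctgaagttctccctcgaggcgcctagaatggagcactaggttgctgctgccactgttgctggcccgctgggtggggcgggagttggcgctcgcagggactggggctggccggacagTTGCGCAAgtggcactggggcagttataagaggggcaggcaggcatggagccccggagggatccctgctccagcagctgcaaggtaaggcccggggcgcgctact
Adig, chr2:158502362-158502661, plus strand: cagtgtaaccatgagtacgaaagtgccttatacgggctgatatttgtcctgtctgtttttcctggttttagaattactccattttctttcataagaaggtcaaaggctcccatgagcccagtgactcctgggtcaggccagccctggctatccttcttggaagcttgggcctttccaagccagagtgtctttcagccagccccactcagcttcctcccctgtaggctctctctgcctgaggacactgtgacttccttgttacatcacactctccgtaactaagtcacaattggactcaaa
Adipoq, chr16:23146286-23146585, plus strand: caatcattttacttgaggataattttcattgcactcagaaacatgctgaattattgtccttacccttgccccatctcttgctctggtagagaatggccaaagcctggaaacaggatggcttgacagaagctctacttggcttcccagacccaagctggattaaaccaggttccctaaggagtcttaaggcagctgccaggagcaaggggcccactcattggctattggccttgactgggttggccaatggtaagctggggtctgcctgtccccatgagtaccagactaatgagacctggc
In the Cidec window, which belongs to 1 of its 2 listed starts, the C/EBP match TTGCTCAA began 198 bases and the AP-1 match TGACTCA 96 bases before the start. Plin1 had TTGCCTAA from 187 bases and TTGCCCAA from 58 bases before its start, and Lep had TTGCGCAA from 55 bases before its start.

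Junb itself, the targeted gene, was at 268 FPKM in wild type against 31.4 in JunB cKO keratinocytes. In plucked skin it was at 40.8 in wild type against 11.7 in JunB cKO, and in wounds at 33.4 in wild type against 15.4 in JunB cKO. The keratinocyte libraries carried epidermal markers at high levels (Krt10, a keratin of differentiating epidermis, at 3320 and 4889 FPKM) and endothelial markers at no more than 1.12 FPKM. Plucked skin is labelled as keratinocyte for tissue but as a skin biopsy in its title, and its collagen gene Col1a1 was at 1168 FPKM in wild type against 527 in JunB cKO. The tables give no read counts, but the steps between the lowest values of sensory receptor genes, which skin should lack, showed that a single read over 1 kb of usable transcript was worth 0.0593 FPKM in wild type and 0.201 FPKM in JunB cKO keratinocytes, 0.0614 and 0.0778 in plucked skin, and 0.0231 and 0.0253 in wounds. The JunB cKO keratinocyte library was thus the shallowest and the wound values the deepest. In plucked skin the steps rest on few loci. In wild type 4 were above 0 and 1 of them was taken as a single read, in JunB cKO 19 and 4. Read numbers given for plucked skin are therefore rough. Levels of 0 need care, because the housekeeping gene Gapdh is listed at 0 in both keratinocyte libraries and Ppia at 0 in the wild type one. For a member at 0 no ratio is printed. Such members still enter the counts and medians and are drawn as open points, at the position that the added 1 gives them.

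In wounds the members reached up to 597 FPKM, and 9 of the 10 were higher in JunB cKO. The exception was Lep. Ratios are given as log2((JunB cKO + 1)/(wild type + 1)) of FPKM, and a locus is counted as different when this reached 1, that is 2-fold, in either direction. Where a pair of FPKM values is given, wild type comes first and JunB cKO second. Of the members, 1 was at least 2-fold higher (Retn) and 0 were lower. Of all 46726 loci tabulated, 2.16% were at least 2-fold higher and 1.98% lower, and among the 17787 loci that reached 1 FPKM in at least 1 genotype 5.68% were higher and 5.19% lower. A count of 1 among 10 genes cannot be told from this background. By any amount, 51.5% of the 17787 loci were higher in JunB cKO. The median ratio of the members was 0.65, beside 0.01 over the 17787 expressed loci, of which the middle 50% lay between -0.26 and 0.32. The summed FPKM of the members was 1145 in wild type against 1587 in JunB cKO wounds.

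**Figure D1:**
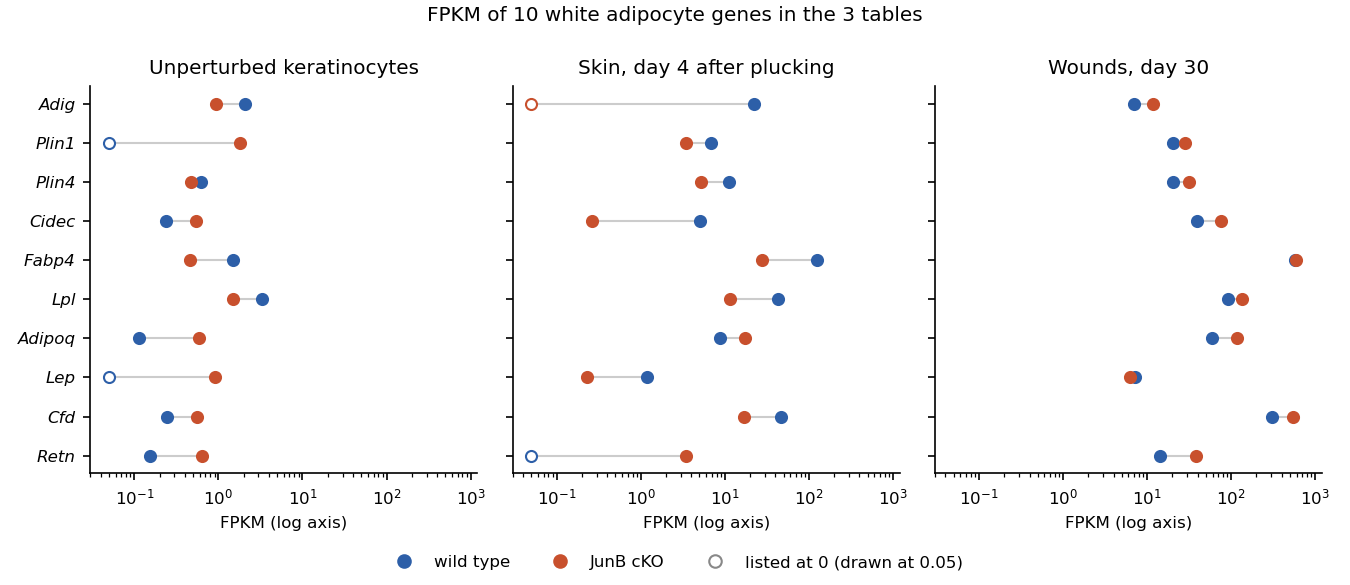
FPKM (log axis) of the 10 white adipocyte genes in wild type (blue) and JunB cKO (orange) in each table, with open points for genes listed at 0. Each point is 1 deposited value without an error. Values in keratinocytes reached at most 3.33 FPKM, 8 genes were lower in JunB cKO in plucked skin, and 9 were higher in wounds. The tables were normalised separately.

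The droplet genes were all higher in JunB cKO wounds. Cidec, whose product lets droplets fuse and grow, was at 39.6 FPKM in wild type against 76.0 in JunB cKO, a log2 ratio of 0.92. Plin1, the perilipin that gates lipolysis at the droplet surface (ENSMUSG00000030546.14, chr7:79720218-79732903, minus strand), was at 20.5 and 28.5, a ratio of 0.46. Plin4, another perilipin, was at 20.2 and 31.6, a ratio of 0.62. The deposited Plin4 locus, at chr17:56079657-56109803, also spans the neighbouring gene Hdgfl2 on the opposite strand. Adig, which encodes the small adipocyte membrane protein adipogenin, was at 6.96 and 11.7, a ratio of 0.67. Their ratios ran from 0.46 to 0.92.

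The lipid uptake genes stayed within 1.5-fold. Fabp4, the fatty acid carrier that is among the most abundant transcripts of adipocytes (ENSMUSG00000062515.3, chr3:10204088-10208576, minus strand), was the highest of the 10 and nearly equal between genotypes, at 581 FPKM in wild type against 597 in JunB cKO, a log2 ratio of 0.04. Fabp4 is also used by capillary endothelium. Lpl, the lipase that frees fatty acids from circulating lipoproteins, was at 92.0 and 135, a ratio of 0.55.

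Among the secreted products, Retn, which encodes the adipocyte hormone resistin (ENSMUSG00000012705.16, chr8:3655770-3660110, plus strand), had the largest ratio of the 10, at 14.3 FPKM in wild type against 38.2 in JunB cKO wounds, a log2 ratio of 1.36 that exceeded those of 97.0% of expressed loci. Adipoq, which encodes adiponectin and marks mature adipocytes (ENSMUSG00000022878.5, chr16:23146536-23158028, plus strand), was at 58.4 and 116, a ratio of 0.98 just below the 2-fold limit and above those of 94.2% of expressed loci. Cfd, which encodes adipsin, the complement factor D, was at 304 and 547, a ratio of 0.84. Lep, which encodes the satiety hormone leptin, was the sole member that was lower, at 7.21 in wild type against 6.35 in JunB cKO, a ratio of -0.16. Retn and Adipoq thus had the highest ratios of the 10 and Lep the lowest.

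In plucked skin the direction was the opposite for most members. Of the 10 genes, 8 were lower in JunB cKO, 5 of them at least 2-fold (Adig, Cidec, Fabp4, Lpl and Cfd), and 2 were higher (Adipoq and Retn), 1 of them at least 2-fold (Retn). Adig and Retn are each listed at 0 in a genotype, and without them 4 of 8 were at least 2-fold lower and 0 higher. Of the 47990 loci tabulated, 5.65% were at least 2-fold lower and 6.50% higher, and among the 16932 expressed loci 16.0% were lower and 18.4% higher. The median ratio of the members was -1.20, beside 0.03 over the expressed loci, of which the middle 50% lay between -0.59 and 0.68. The ratios of expressed loci thus spread more widely in this table than in the wounds. The wound values merge 2 libraries per genotype and were deeper, and the part of depth in this spread was not tested. By any amount, 51.3% of the expressed loci were higher in JunB cKO. The summed FPKM of the members was 269 in wild type against 85.8 in JunB cKO. In such bulk tissue, fewer adipocytes and less of these transcripts in each adipocyte cannot be told apart.

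The lipid uptake genes and Cidec were among those at least 2-fold lower in plucked skin. Fabp4 was at 125 FPKM in wild type against 27.4 in JunB cKO, a log2 ratio of -2.16. Lpl was at 42.4 and 11.6, a ratio of -1.78. The table holds a second Lpl locus at the same coordinates (chr8:68880491-68907448), at 22.0 in wild type against 27.5 in JunB cKO, and with both summed the ratio was -0.70 and no longer reached 2-fold. Lpl is a gene of the plus strand, and the second locus stood in the table among neighbours of which 44 are annotated on the minus strand and 1 on the plus strand. Cidec was at 5.13 and 0.266, a ratio of -2.28. The JunB cKO value corresponds to between 0.6 and 5.2 reads, depending on which annotated coding transcript is taken, against 14.8 to 127 reads in wild type. Adig was at 22.0 FPKM in wild type, 103.5 to 155 reads, and is listed at 0 in JunB cKO. Plin1 was at 6.86 and 3.45, a ratio of -0.82. Plin4 was at 11.2 and 5.16, a ratio of -0.99. Both perilipins were lower in JunB cKO and stayed within 2-fold on this scale. With 0.1 FPKM added in place of 1, the ratio of Plin4 was -1.11, past 2-fold, and that of Plin1 -0.97.

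The secreted products did not share one direction in plucked skin. Cfd was at 46.4 FPKM in wild type against 16.9 in JunB cKO, a log2 ratio of -1.41. Lep was at 1.20 and 0.228, a ratio of -0.84, where the JunB cKO value stands for 9.0 reads at most. Adipoq went the other way, at 8.76 and 17.4, a ratio of 0.92 that lay above those of 80.3% of expressed loci. Retn is listed at 0 in wild type and was at 3.46 in JunB cKO, or 30.0 to 41.8 reads. Adiponectin transcripts were thus higher, and adipsin and leptin transcripts lower, in the same pair of libraries. The 0 of Retn in wild type and the 0 of Adig in JunB cKO may each be a failed estimate, which was not tested. Among all loci of plucked skin, 224 are listed at 0 in wild type with at least 10 FPKM in JunB cKO. Another 133 are listed at 0 in JunB cKO with at least 10 FPKM in wild type. Adig, at 22.0 FPKM in wild type, is of the latter kind, and Retn, at 3.46 FPKM in JunB cKO, is of neither. The plot of log2 ratios shows the split in direction among the members against the spread of all expressed loci.

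**Figure D2:**
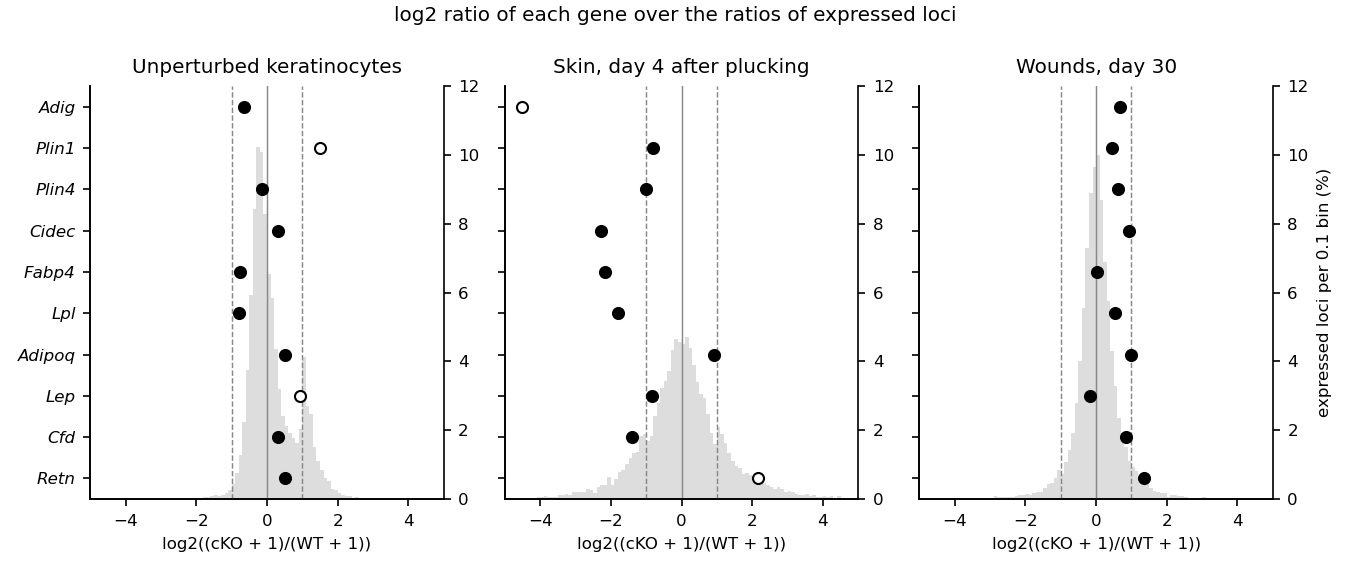
log2((JunB cKO + 1)/(wild type + 1)) of FPKM for each of the 10 genes (points, left axis), over the distribution of this ratio among loci that reached 1 FPKM in at least 1 genotype (grey bars, percent of loci per bin on the right axis). Open points are genes listed at 0 in a genotype, whose position depends on the added 1, and dashed lines mark 2-fold. In wounds the 10 ratios ran from -0.16 to 1.36, whereas in plucked skin 8 lay below 0 and 2 above.

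In unperturbed keratinocytes the members were near the floor of the measurement. The highest was Lpl, at 3.33 FPKM in wild type against 1.5 in JunB cKO, a log2 ratio of -0.79. Fabp4 was at 1.47 and 0.455, a ratio of -0.77, and Adig at 2.06 and 0.930, a ratio of -0.66. The JunB cKO value of Fabp4 corresponds to 1.6 reads and that of Adig to 1.3 to 2.0 reads. Plin1 and Lep are listed at 0 in wild type and were at 1.81 and 0.919 in JunB cKO. Adipoq was at 0.115 and 0.583, a ratio of 0.51, and Retn at 0.155 and 0.641, also a ratio of 0.51. Cfd was at 0.246 and 0.555, a ratio of 0.32, which is 2.8 to 3.0 reads in wild type and 1.9 to 2.0 reads in the shallower JunB cKO library. Cidec was at 0.236 and 0.534, a ratio of 0.31, and Plin4 at 0.618 and 0.469, a ratio of -0.14.

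Most of these keratinocyte values lie near the background of the libraries. Lpl rested on more reads, 219.7 in wild type and 29.3 in JunB cKO. The median FPKM of 1488 sensory receptor genes was 0 in wild type against 0.543 in JunB cKO, so these genes too were listed higher in JunB cKO. Of the members 1 was at least 2-fold higher (Plin1, listed at 0 in wild type) and 0 were lower, where 9.31% of 26457 loci were at least 2-fold higher and 0.858% lower. Among the 15973 expressed loci 15.4% were higher and 1.42% lower. The median ratio of the members was 0.32, and it was -0.30 after the receptor median was subtracted, when Adipoq, Cfd, Cidec and Retn came to lie below 0 and the 3 genes Adig, Fabp4 and Lpl reached 2-fold lower. No direction is read for the members under 1 FPKM in both libraries. Of 93 measured genes of the other adipocyte lists, 3 were at least 2-fold lower and 6 higher in JunB cKO keratinocytes, with a median ratio of -0.02. The 3 lower ones are also used by epidermis or sebaceous gland, namely Cidea at 18.2 and 6.87 FPKM, Fabp5 at 102 and 47.6 and Cd36 at 5.51 and 1.38, the last named after its values were seen. The 12 sebocyte genes summed to 1128 and 634 FPKM in the same libraries, with 6 at least 2-fold lower.

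Other adipocyte genes were followed in 7 lists with 95 genes in all. In plucked skin 93 of them were measured, 21 at least 2-fold lower and 9 at least 2-fold higher in JunB cKO, with a median ratio of -0.04. The shares among expressed loci were 16.0% lower and 18.4% higher, and the plucked-skin counts of the single lists are to be read beside them. In wounds 7 of 93 were at least 2-fold higher and 1 lower, beside 5.68% and 5.19% of expressed loci. Their median was 0.26, beside 0.01 over the expressed loci. Counts of list genes higher in wounds by any amount are to be read beside 51.5% of expressed loci. The 7 lists were not alike in plucked skin, where the median of the precursor genes was -1.12, close to the -1.20 of the members, and those of the other 6 lists lay between -0.15 and 0.

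Among 13 regulators of adipocyte identity, 2 were at least 2-fold lower in JunB cKO plucked skin and 2 higher, shares near those of all expressed loci. Pparg, the nuclear receptor that drives adipocyte formation and is also made by sebocytes, was at 34.8 FPKM in wild type against 15.7 in JunB cKO, a log2 ratio of -1.10. Ebf1, an early factor of the adipocyte lineage, was at 20.6 and 4.43, a ratio of -1.99. Cebpa, the partner of Pparg in mature fat cells, was higher, at 27.2 and 48.9, a ratio of 0.83. Cebpb was at 42.5 and 57.2, a ratio of 0.42. Isolated keratinocytes also held both, Cebpa at 113 and 73.4 FPKM and Cebpb at 73.5 and 78.6. The part of epidermis in the values of these genes was not tested. The 2 higher by 2-fold, Nr1h3 at 2.31 and 8.76 and Thrsp at 1.82 and 6.49, were singled out after their values were seen. In wounds 11 of the 13 regulators were higher and 2 lower, with 1 past 2-fold, the lipogenic factor Thrsp, at 7.07 and 23.5, a ratio of 1.60. Pparg was at 24.2 and 37.1 there, a ratio of 0.59, Cebpa at 18.0 and 27.98, a ratio of 0.61, and Ebf1 at 43.5 and 27.4, a ratio of -0.65. Pparg and Cebpa thus lay in opposite directions in plucked skin and in the same direction in wounds.

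Of 17 measured genes of lipid droplets and lipolysis, 2 were at least 2-fold lower in plucked JunB cKO skin and 0 were higher, both below the shares of all expressed loci. Cidea, a CIDE protein of brown fat and sebaceous glands, was at 73.7 FPKM and 21.7, a log2 ratio of -1.72. The other was Plin5, at 1.06 in wild type but listed at 0 in JunB cKO, which was named after its value was seen. Mgll and Lipe, both lipases that break down stored glyceride, were at 184 and 95.3, a ratio of -0.94, and at 10.5 and 5.41, a ratio of -0.84. Plin2, the perilipin of many cell types, was at 125 and 72.4, a ratio of -0.78. In wounds none of the 17 differed by 2-fold, while 14 were higher and 2 lower, with a median of 0.41. G0s2, an inhibitor of lipolysis, was at 8.27 and 16.8, a ratio of 0.94, and the seipin gene Bscl2 at 15.8 and 25.2, a ratio of 0.64. Mgll was at 33.1 and 63.4, a ratio of 0.92, and Pnpla2, the lipase that starts triglyceride breakdown, at 34.2 and 50.2, a ratio of 0.54.

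Of 18 genes of fatty acid uptake and glyceride synthesis, 4 were at least 2-fold lower in plucked JunB cKO skin and 2 higher. Cd36, the fatty acid translocase, was at 216 FPKM and 32.8, a log2 ratio of -2.69. Fabp5, the carrier of epidermis and sebaceous gland, was at 461 and 75.9, a ratio of -2.59. Agpat2 and Gpam, which encode acyltransferases of glyceride synthesis, were at 26.5 and 7.17, a ratio of -1.75, and at 35.2 and 19.5, a ratio of -0.82. Outside the rule for named genes, Pck1 was lower, at 3.51 and 0.663, and Gpihbp1 and Fabp3 are listed at 0 in wild type and were at 4.48 and 5.12 in JunB cKO. Gpihbp1 carries lipoprotein lipase to the capillary surface. In wounds 15 of the 18 were higher, 1 of them 2-fold, Mogat1 at 0.116 and 2.19, named after its values were seen. Gpd1, which supplies glycerol phosphate, was at 10.9 and 21.0, a ratio of 0.89, Agpat2 at 9.92 and 18.6, a ratio of 0.85, Dgat1 at 14.2 and 24.6, a ratio of 0.75, and Acsl1 at 94.1 and 145, a ratio of 0.62. Dgat1 and Acsl1 encode enzymes of triglyceride assembly and fatty acid activation.

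Of 13 genes of the insulin, catecholamine and glucose response, 2 were at least 2-fold lower and 2 higher in plucked JunB cKO skin, again near the shares of all expressed loci. Car3, a carbonic anhydrase abundant in white fat and in muscle, was at 44.2 FPKM and 12.6, a log2 ratio of -1.73. Trarg1 was at 3.34 in wild type but is listed at 0 in JunB cKO. Slc2a4, the insulin-responsive glucose transporter, was at 0.635 and 2.74 and Lgals12 at 1.98 and 6.93, and these and Trarg1 were named after their values were seen. In wounds 3 were at least 2-fold higher and 0 lower. Slc2a4 was at 5.003 and 23.7, a ratio of 2.04, and Acvr1c, an activin receptor of fat cells, at 3.92 and 10.2, a ratio of 1.19. The third was Adrb3, the beta adrenergic receptor of adipocytes, at 2.14 and 6.06, likewise named after its values were seen. Car3 was at 587 and 850 in wounds, a ratio of 0.53.

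Other secreted factors and their receptors numbered 15. In plucked JunB cKO skin 5 were at least 2-fold lower and 1 higher. Angptl4, an inhibitor of lipoprotein lipase, was at 39.6 FPKM and 4.26, a log2 ratio of -2.95. Rarres2, which encodes chemerin, was at 55.9 and 13.4, a ratio of -1.99, and Retnla, a resistin-like gene also made by macrophages, was at 11.7 in wild type but is listed at 0 in JunB cKO. Sncg was at 5.74 and 11.7, a ratio of 0.91. In wounds 1 was at least 2-fold higher, Rbp4 at 2.18 and 7.29 (named after its values were seen), and 0 were lower. There Sncg was at 23.6 and 42.4, a ratio of 0.82, and Angptl4 at 40.8 and 54.6, a ratio of 0.41. Of 10 precursor genes, 5 were at least 2-fold lower in plucked JunB cKO skin and 0 higher, among them Dpp4, a surface protease of early precursors, at 46.0 and 5.45, a ratio of -2.86, and Pdgfrb, a receptor of mural and precursor cells, at 15.6 and 3.88, a ratio of -1.77. By any amount, 9 of the 10 were lower in plucked JunB cKO skin, and Ly6a was higher, at 81.7 and 109, a ratio of 0.41. In wounds none of the 10 differed by 2-fold, while 7 were higher and 3 lower, with a median of 0.10. There Dpp4 was at 68.2 and 52.5, a ratio of -0.37, and Pi16 at 49.0 and 58.7, a ratio of 0.26.

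Markers of other cells of the skin differed between the same libraries. In plucked skin 12 of 16 measured skeletal muscle genes were at least 2-fold lower in JunB cKO and 1 higher, with a summed FPKM of 406 in wild type against 55.4 in JunB cKO. Among them Mylpf, a light chain of fast muscle myosin, was at 118 and 11.3, a log2 ratio of -3.27, while Myh2, Myl1 and Mb are listed at 0 in JunB cKO and Tcap at 0 in wild type. All 10 macrophage genes were at least 2-fold lower, with sums of 311 and 104, and 4 of 8 fibroblast genes were, with sums of 5167 and 1888. For example the macrophage gene Cd68 was at 34.9 and 6.23, a ratio of -2.31, and the collagen gene Col3a1 at 2559 and 535, a ratio of -2.26. Endothelial genes summed to 98.9 and 71.1, with 2 of 10 at least 2-fold lower. The 12 sebocyte genes summed to 2938 and 1903, with 3 at least 2-fold lower. By any amount all 12 sebocyte genes were lower, with a median ratio of -0.54. The sums of 10 epidermal keratinocyte genes were 9392 and 10887, with 1 gene at least 2-fold higher and 0 lower. The part of these other cell types in the lower adipocyte values was not tested.

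In wounds the muscle, macrophage and fibroblast lists lay closer to equality than in plucked skin, and the endothelial and sebocyte lists did not. Of 16 skeletal muscle genes 0 differed by 2-fold, with sums of 7529 in wild type against 8427 in JunB cKO and a median ratio of 0.07. Macrophage genes summed to 597 and 586 and fibroblast genes to 10744 and 13601, with 0 genes past 2-fold in either list. Endothelial genes summed to 166 and 236, with 1 of 10 at least 2-fold higher. The 12 sebocyte genes summed to 978 and 1829, with 5 at least 2-fold higher, among them Scd1, a stearoyl-CoA desaturase that adipocytes also use, at 390 and 1009, a ratio of 1.37. The median ratio was 0.65 for the 10 adipocyte members and 0.66 for the sebocyte genes. The part of sebaceous glands in the adipocyte values of wounds was not tested.

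**Figure D3:**
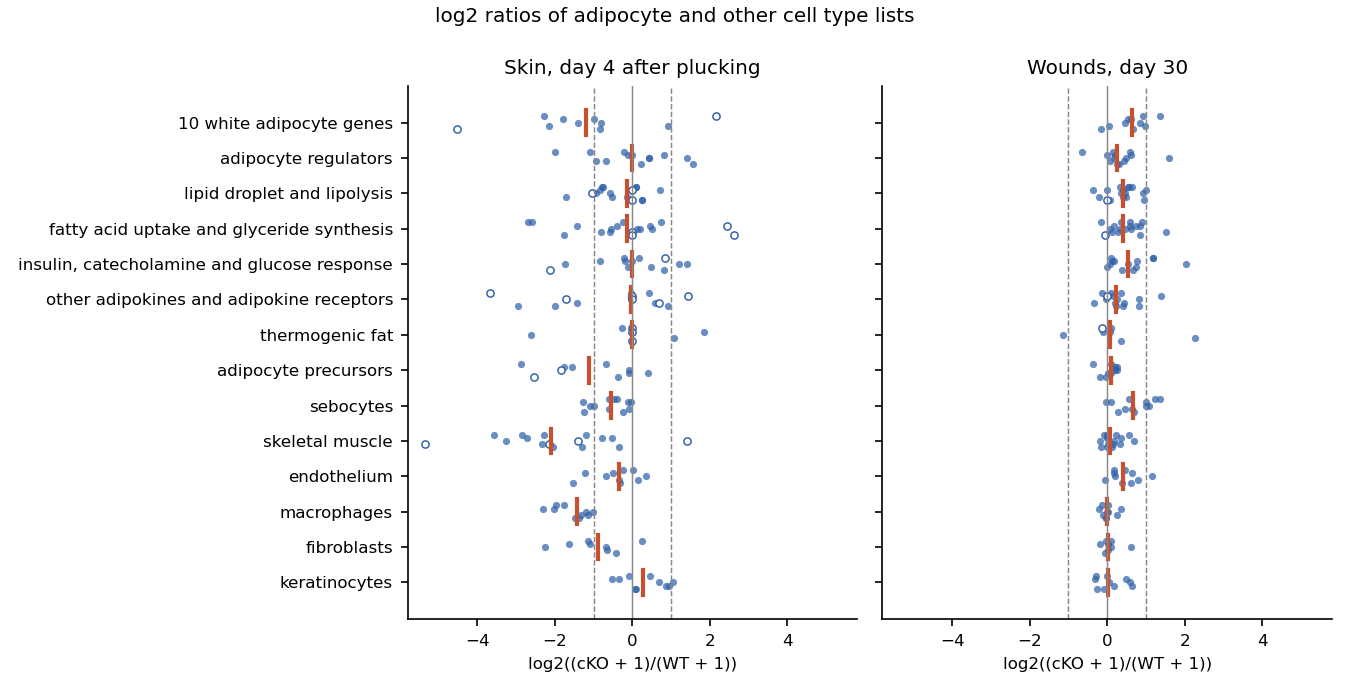
log2((JunB cKO + 1)/(wild type + 1)) of FPKM for every measured gene (points) of the adipocyte lists and of markers of other cell types in plucked skin and in wounds, with the median of each list as an orange bar, open points for genes listed at 0 in a genotype or in both, and dashed lines at 2-fold. In plucked skin the medians of the 10 white adipocyte genes (-1.20), of adipocyte precursor (-1.12), of macrophage (-1.44) and of skeletal muscle genes (-2.10) lay below -1, while in wounds the muscle median was 0.07.

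The same gene could be compared between conditions through its own ratio in each table. Adipoq was higher in JunB cKO in both, at ratios of 0.92 and 0.98, and Lep was lower in both, at -0.84 and -0.16. Cidec, Cfd, Lpl, Plin1 and Plin4 were lower in plucked skin and higher in wounds, Fabp4 was lower in plucked skin (-2.16) and near equal in wounds (0.04), and Adig and Retn are listed at 0 in a genotype of plucked skin. The difference between the tables could not be tested.

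**Figure D4:**
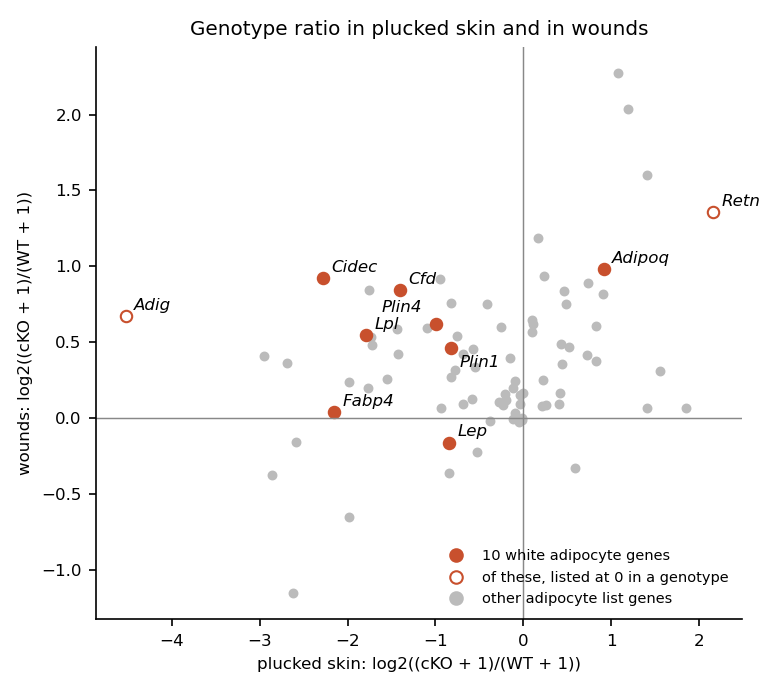
The log2 ratio of JunB cKO over wild type (FPKM + 1) in plucked skin (horizontal) and in wounds (vertical) for the 10 white adipocyte genes (orange, open where listed at 0 in a genotype) and for the other adipocyte list genes above 0 in both tables (grey). Adipoq and Retn lie at upper right, Lep at lower left, and the other 7 at upper left.

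Over the 6 columns, the mean log2(FPKM + 1) of the members was 0.67 in wild type against 0.84 in JunB cKO keratinocytes, 3.61 and 2.44 in plucked skin and 5.40 and 6.03 in wounds. The 10 other genes most like it among 8792 genes were Camkk2, Srgn, Car3, Fcgrt, Peg3, Fkbp7, Mybpc1, Pdpn, Tnnc2 and Tnnt3, with Pearson's r between 0.995 and 0.9996. These 6 points come from 3 separately normalised tables, and the keratinocyte columns are the lowest for members and for these genes alike, so r is given only as a description. Camkk2, which encodes a calcium-dependent kinase, was at 2.61 and 3.11 FPKM in keratinocytes, 15.0 and 7.49 in plucked skin and 39.2 and 50.1 in wounds. Mybpc1, Tnnc2 and Tnnt3 are genes of the muscle contractile apparatus.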

How the data were processed

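RNA-seq of wild type and JunB cKO mouse keratinocytes and skin was examined in 8 libraries. Per the study's methods, the RNA of 3 samples was pooled for each group, depleted of ribosomal RNA, sequenced from stranded libraries and aligned to GRCm38. Per the labels, Cufflinks and Cuffdiff were used (build mm10). The authors deposited 3 Cuffdiff tables with 1 FPKM value per genotype and locus, the 2 wound libraries per genotype being merged. Their columns of fold change, test statistic and p-values were not used, and the status column was used in an alternative only.

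For symbols with more than 1 locus, that of the highest FPKM over both genotypes was taken. Ratios were log2((JunB cKO + 1)/(wild type + 1)), which understates differences of low genes, and loci at 2-fold or more were counted, over all loci and over those that reached 1 FPKM in at least 1 genotype. With 1 value per genotype no test was made. Read numbers were estimated from FPKM steps of receptor loci of 880 to 1000 bases, assuming fragments of 200 bases. Values fell within 0.05 of whole reads at 39 of 39 and 897 of 897 loci in keratinocytes. These numbers were 4 of 4 and 18 of 19 in plucked skin and 64 of 82 and 20 of 26 in the merged wounds. They include the lowest loci, which were taken as 1 read and so are whole by construction. Besides the 10 members and Junb, up to 4 genes were named per list and comparison, those with the largest ratio among list genes with at least 10 FPKM in the higher genotype. Others are named where a count is small or a marker is listed at 0, and were picked after their values were seen. The members and lists were chosen with earlier results of these data known. Gene positions are from GENCODE M21, converted to 1-based coordinates. Scripts used pandas 2.3.3, numpy 2.4.6 and Python 3.11.15. The ratio and count steps were run on simulated data with changes planted, without noise, at loci of at least 10 FPKM. That checks the code only and not the calls at low levels.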

Additional observations from a re-analysis of the deposited data

Results flagged for a closer look

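The median log2 ratio of the 10 white adipocyte genes was -1.20 in plucked skin and 0.65 in wounds, a difference of 1.85 between conditions with opposite signs. Cfd, adipsin, had a ratio of -1.41 in plucked skin and 0.84 in wounds, a difference of 2.25. Cidec, the droplet fusion gene, had a ratio of -2.28 in plucked skin and 0.92 in wounds, a difference of 3.20. Each condition gave a single value per genotype, so these differences were not tested.

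The second locus listed for Lpl in plucked skin entered only the alternative that sums the loci of a symbol, where the count of members at least 2-fold lower was 4 in place of 5. It stood at 27.5 FPKM in JunB cKO and 22.0 in wild type, a log2 ratio of 0.31. There 616 symbols had 2 loci at the same coordinates, beside 33 in the wound table and 1 in the keratinocyte table.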

How the results depend on the processing

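Each alternative changed one choice, and a value was taken as moved when it shifted by more than 1.5-fold, as no replicate spread exists. In keratinocytes the median ratio of 0.32 became 0.92 and 1.14 with 0.1 and 0.01 FPKM added in place of 1, -0.71 over the 4 members with an FPKM of at least 1 (the same 4 have the status OK), and -0.30 after subtraction of the receptor gene median. The keratinocyte count of members at least 2-fold lower went from 0 to 3 with 0.1 or 0.01 FPKM added, with the receptor median subtracted and at a limit of 1.5-fold. That of members higher went from 1 to 4 and 6 with 0.1 and 0.01 FPKM added, and to 2 when centred on the median ratio of loci expressed in both genotypes (-0.15) and at 1.5-fold. In plucked skin the count of members at least 2-fold lower went from 5 to 7 with 0.1 or 0.01 FPKM added, and then included Plin4 and Lep. At 1.5-fold, plucked skin had 8 members lower and 2 higher, where 25.2% of expressed loci were lower and 27.8% higher. Wounds had 6 higher at 1.5-fold, where 13.0% of expressed loci were. The same shares in keratinocytes were 6.62% lower and 23.0% higher. Leaving out members listed at 0, chosen after seeing the data, gave 0 members at least 2-fold higher in keratinocytes and in plucked skin.

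Over the alternatives that recompute ratios, 41 of 46 recomputed member ratios in keratinocytes kept their sign. All 56 in plucked skin and all 70 in wounds did too, but there almost no choice could change a sign. A smaller added value or a filter cannot, the receptor median was 0, and centring shifted ratios by only 0.004 and 0.011. Summing loci altered Lpl in plucked skin alone. In plucked skin Cidec moved to -4.22 and Lep to -2.35 with 0.01 FPKM added, and Lpl to -0.70 with its loci summed. No paired analysis was possible because each table gives 1 value per genotype, and for the same reason no library could be left out in turn. Depth limits the keratinocyte values most, where members rest on few reads.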

Other observations

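Genes of thermogenic fat, the brown and beige cells that burn lipid, were measured for 7 of 8 listed symbols. In wounds Ucp1, the uncoupling protein that defines these cells, was at 0.0963 FPKM in wild type but is listed at 0 in JunB cKO, and in plucked skin it is listed at 0 in both genotypes. Cox7a1 and Cox8b, respiratory chain subunits that muscle also uses, were at 46.7 and 43.6 FPKM and at 37.3 and 47.9 in wild type and JunB cKO wounds, log2 ratios of -0.10 and 0.35. Both are listed at 0 in both genotypes of plucked skin. Prdm16, a regulator of beige fat, was at 0.721 and 7.32 in wounds, a ratio of 2.27, and at 0.715 and 2.62 in plucked skin, a ratio of 1.08. Ppargc1a, a coactivator of mitochondrial genes, was at 5.87 and 2.09 in wounds, a ratio of -1.15, and at 6.19 and 0.172 in plucked skin, a ratio of -2.62. Dio2 was at 0.317 and 3.75 in plucked skin, a ratio of 1.85, and at 1.53 and 1.65 in wounds, a ratio of 0.06. Of the 7, 2 were at least 2-fold higher and 1 lower in plucked skin, beside 18.4% and 16.0% of expressed loci. In wounds 1 was higher and 1 lower, beside 5.68% and 5.19%. Prdm16, Ppargc1a and Dio2 were singled out after their values were seen.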
